A study of Mus musculus with 32 samples.

Results

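Glycine conjugation joins an acyl group, carried on coenzyme A, to the amino acid glycine, and the acylglycine that forms leaves the body in urine. The reaction is known as a liver and kidney route for benzoate and, when beta-oxidation is blocked at MCAD, for medium-chain acyl groups such as hexanoate. It has a pair of steps: a medium-chain acyl-CoA synthetase of the ACSM family makes the acyl-CoA from the free acid, and a glycine N-acyltransferase of the GLYAT family moves the acyl group to glycine. The genes described here are 7 of the 20076 genes in the liver count table: Glyat, which encodes glycine N-acyltransferase, its relatives Keg1 and Gm4952, and Acsm1, Acsm2, Acsm3 and Acsm5. They were chosen by name for their place in the pathway and not by a measured value, but with earlier results of these data known. Of the 7, 6 had enough counts to be tested and Acsm2 did not. The related genes Acsm4 and Glyatl3 are not among the 7. They were placed in the lists of other genes below, and neither was among the genes of those lists that were tested.

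Livers came from male C57BL/6J mice that lacked Acadm, the gene of medium-chain acyl-CoA dehydrogenase (MCAD-KO, below KO), and from wild-type (WT) littermates. The KO line had been backcrossed for 10 generations. Mice ate a low-fat (LF) or a palm-oil high-fat (HF) semisynthetic diet for 6 weeks and were killed fed or after 16 h without food, which gave 8 groups of 4 mice. The labels give ages of 7.5 to 16 without a unit. Reads were taken near the 3′ end of polyadenylated RNA, and the mice used had between 2031053 and 4292200 counted reads each.

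Of the 32 mice, 30 are used below. By the rule for these genes, the fourth KO HF fasted and the second WT LF fed mouse are left out. In the first of these, a list of 12 heart genes reached 43073 CPM in sum (CPM, counts per 1000000, here after TMM normalization, which evens out differences in composition between libraries), whereas the 30 mice had no more than 373 CPM. Its 10 hepatocyte genes had 1115 CPM, and those of the 30 mice 58906 CPM or more. In the other, hepatocyte genes had 48515 CPM and 7 stellate cell genes 1227 CPM, where the 30 mice had 611 CPM or less of the latter. Of the 18 log2 fold changes of single genes that passed the test below, 14 no longer passed with both mice added, and 5 with the WT LF fed mouse alone added. Of 12 kidney genes, 5 were in the table, and they summed to 0 to 4.69 CPM in the 30 mice, 2 of them at 0 in every mouse. Acadm itself had 8.98 to 37.1 CPM in 15 KO mice and 189.8 to 748 CPM in 15 WT mice, so that all labels of genotype held. In liver pieces such as these, fewer cells of a type and less RNA per cell cannot be told apart.

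The 3 GLYAT family genes lie side by side on the plus strand of chromosome 19 (GRCm38), within 120 kb, in the order Gm4952 (12599974 to 12628251), Glyat (12633308 to 12653911) and Keg1 (12695786 to 12719902). By the longest coding sequences of GENCODE vM21, Glyat and Gm4952 share 68.1% of 295 aligned residues, Glyat and Keg1 61.7%, and Keg1 and Gm4952 61.0%. The 4 Acsm genes lie within 268 kb on the plus strand of chromosome 7, in the order Acsm5 (119519463 to 119545551), Acsm2 (119554340 to 119600690), Acsm1 (119607026 to 119662515) and Acsm3 (119760923 to 119787513). Their proteins share 52.7% (Acsm1 and Acsm3) to 58.1% (Acsm3 and Acsm5). Reads of such relatives could be split between them by the counting. Of all 50-base runs in the last 500 bases of each gene's transcripts, none of Glyat, Gm4952, Acsm1, Acsm2 or Acsm5 occurred in a transcript of another gene. For Keg1, 12.0% occurred in the opposite-strand gene Gm15962, and for Acsm3, 49.0% in Eri2, which overlaps its end on the opposite strand. Eri2 had 1 to 37 counts per mouse. The strand setting of the counting is not given in the sources used here, so that counts of Keg1 and Acsm3 carry this uncertainty. Pdilt overlaps exons of Acsm5 on the opposite strand, had 4 to 47 counts per mouse and shared none of these runs.

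The promoters of the chromosome 19 genes are shown because these neighbours responded to food withdrawal in opposite directions or without a detected change, as given below. Each run holds 250 bases before to 50 bases after the RefSeq start (GRCm38.p6, plus strand; for Gm4952 the first of 2 starts, whose windows overlap), and capitals mark the letters of 4 motifs searched on both strands. These were GTTAAT (part of the site of HNF1), AGGTCA (part of the sites of nuclear receptors such as HNF4A and PPARA), TGTTTAC (bound by forkhead factors) and AGAACA (part of the site of the glucocorticoid receptor). Of 32851 mouse promoter windows of this length, 7.10% hold the first, 16.3% the second, 3.65% the third and 18.97% the last.
Gm4952 (chr19:12599734-12600033): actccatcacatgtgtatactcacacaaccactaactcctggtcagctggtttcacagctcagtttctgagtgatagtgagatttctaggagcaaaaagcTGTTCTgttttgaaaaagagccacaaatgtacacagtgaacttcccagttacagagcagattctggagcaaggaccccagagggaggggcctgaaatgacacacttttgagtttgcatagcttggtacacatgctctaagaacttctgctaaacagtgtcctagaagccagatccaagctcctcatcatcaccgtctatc
Glyat (chr19:12633058-12633357): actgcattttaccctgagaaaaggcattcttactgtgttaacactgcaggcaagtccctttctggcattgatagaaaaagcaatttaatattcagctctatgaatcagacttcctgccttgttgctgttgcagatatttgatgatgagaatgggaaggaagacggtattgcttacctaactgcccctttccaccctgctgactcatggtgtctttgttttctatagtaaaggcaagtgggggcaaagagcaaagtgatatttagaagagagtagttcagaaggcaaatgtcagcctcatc
Keg1 (chr19:12695540-12695839): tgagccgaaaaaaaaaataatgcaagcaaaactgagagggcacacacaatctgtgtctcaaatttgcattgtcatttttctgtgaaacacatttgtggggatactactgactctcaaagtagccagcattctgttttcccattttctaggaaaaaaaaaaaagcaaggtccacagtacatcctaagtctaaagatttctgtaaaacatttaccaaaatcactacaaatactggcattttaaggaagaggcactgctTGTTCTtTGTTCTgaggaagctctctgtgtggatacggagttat
Keg1 had 2 matches to AGAACA, read as TGTTCT and set 1 base apart just after the start, and Gm4952 had 1. Glyat had none of the 4 motifs. Among the Acsm genes, the window of Acsm1 held 1 match to AGGTCA, that of Acsm3 1 to TGTTTAC, and that of Acsm5 none. Acsm2 also has 2 starts, of which the first held 1 match to GTTAAT and 1 to AGAACA. Such matches describe letters, not binding.

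Keg1 and Gm4952 moved in opposite directions on fasting, while Glyat between them did not pass the test in any comparison. Keg1 fell on the LF diet by 5.59-fold in WT and 4.52-fold in KO mice, and on the HF diet by 2.25-fold in KO. Gm4952 rose by 2.22-fold in WT LF, 3.15-fold in KO LF and 2.18-fold in KO HF mice. Fold changes come from edgeR's quasi-likelihood F test on TMM-normalized counts, with p-values adjusted by Benjamini-Hochberg over all genes tested. Averaged over diet and genotype, 3 of the 6 genes tested passed at an adjusted p below 0.05, 1 higher and 2 lower in fasted mice, where 18.9% of all 11566 genes passed. The median log2 fold change was -0.01 for the 6 genes and -0.00 for all genes.

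Keg1 was named for its expression in kidney and encodes a protein of the GLYAT family. WT LF fed mice had 212, 108 and 109 CPM, and WT LF fasted mice had 20.5, 22.1, 29.8 and 29.9 CPM. KO LF fed mice had 75.0, 196, 86.9 and 139 CPM, and KO LF fasted mice had 23.4, 22.9, 28.5 and 35.2 CPM. In both genotypes every fasted mouse lay below every fed mouse. On the log2 scale, Keg1 fell by 2.48 in WT LF mice (standard error, SE, 0.27, adjusted p = 9.0e-08 by edgeR) and by 2.18 in KO LF mice (SE 0.25, adjusted p = 2.8e-07).

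On the HF diet the Keg1 levels of fasted mice were higher than on the LF diet. WT HF fed mice had 103, 111, 87.0 and 117 CPM, and WT HF fasted mice had 81.2, 93.3, 77.0 and 68.6 CPM. These ranges overlapped, and -0.39 on the log2 scale did not pass (95% interval -0.87 to 0.10, adjusted p = 0.688). KO HF fed mice had 197, 135, 133 and 136 CPM and KO HF fasted mice 67.6, 82.7 and 50.6 CPM, which did not overlap. There it was -1.17 (SE 0.26, adjusted p = 0.0298). Leaving out any 1 of these 7 KO HF mice ended that call (adjusted p of up to 0.309), and KO HF fed replicate 1, the mouse at 197 CPM, also had 2453 CPM of acinar pancreas genes and 373 CPM of heart genes. WT LF fed replicate 1, at 212 CPM of Keg1, had 27.2 CPM of acinar pancreas and 20.9 CPM of heart genes. KO LF fed replicate 2, at 196 CPM of Keg1, had 22.8 and 0.843 CPM of these. Without KO HF fed replicate 1, Keg1 had -1.01 in KO HF mice (adjusted p = 0.0909). The part of RNA of other tissues in the result was not tested. In WT HF fasted mice, replicate 2 had 16796 CPM of acinar pancreas genes, and WT HF mice without it had -0.47 for Keg1 and 0.83 for Gm4952, neither of which passed.

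The effect of fasting on Keg1 differed between the diets. The log2 fold change on the HF diet minus that on the LF diet, averaged over genotype, was 1.55 (SE 0.25, adjusted p = 3.6e-04), the 1 call among the 6 genes where 2.46% of all genes passed. With any single mouse left out it was 1.36 to 1.64, with adjusted p of at most 0.00156. Over all 32 mice it was 1.22 and did not pass (adjusted p = 0.333). The order of the group means ran from WT LF fasted (25.5 ± 4.97 CPM, SD, n = 4) and KO LF fasted (27.5 ± 5.72, n = 4) over KO HF fasted (67.0 ± 16.1, n = 3) and WT HF fasted (80.03 ± 10.3, n = 4) to WT HF fed (105 ± 12.9, n = 4). Above these lay KO LF fed (124 ± 55.6, n = 4), WT LF fed (143 ± 59.4, n = 3) and KO HF fed (150.3 ± 31.4, n = 4). Of the 7 pairs of neighbours in this order, the ranges overlapped in 6. The gap lay between the 8 LF fasted mice, at 20.5 to 35.2 CPM, and all other mice, at 50.6 CPM or more.

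**Figure D1:**
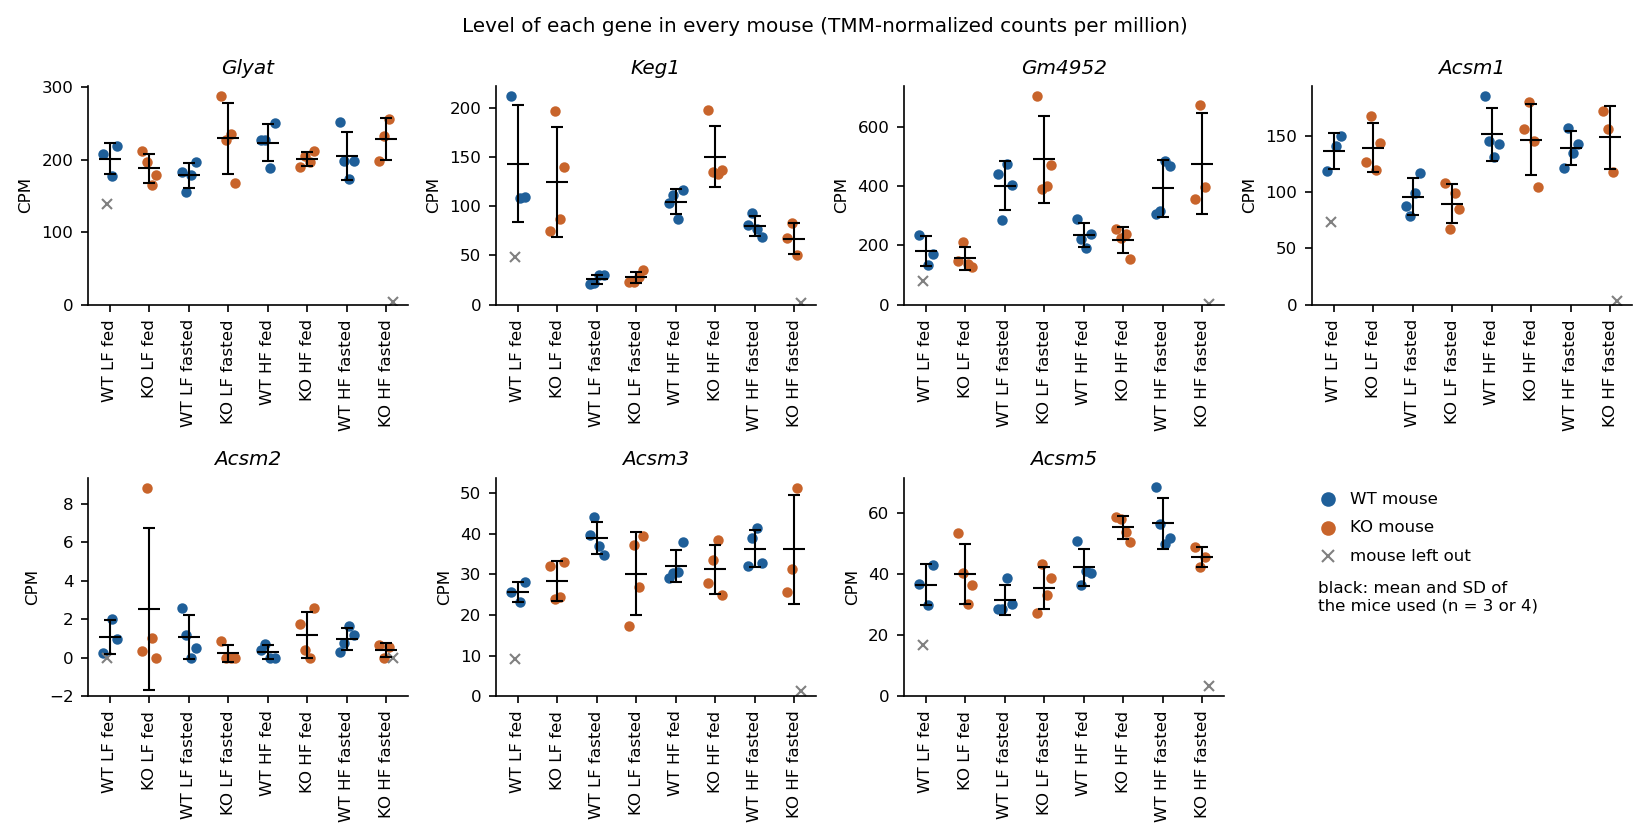
Each panel shows 1 gene, with the level in every mouse in TMM-normalized counts per 1000000 (CPM, linear axis) against the 8 groups of genotype, diet and feeding state. Points are mice (blue WT, orange KO, grey crosses the 2 mice left out), and black bars are the mean and SD of the 3 or 4 mice used. Keg1 is low in the 8 LF fasted mice (20.5 to 35.2 CPM), Gm4952 is higher in fasted (285 to 702 CPM) than in most fed mice (128 to 289 CPM), and Glyat stays between 155 and 287 CPM.

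Gm4952 encodes a protein of the same family, set next to Glyat on the chromosome. WT LF fed mice had 236, 135 and 171 CPM and WT LF fasted mice 442, 285, 474 and 404 CPM. KO LF fed mice had 145, 211, 138 and 128 CPM and KO LF fasted mice 702, 389, 399 and 470.4 CPM. Within each genotype no fasted mouse overlapped a fed mouse. On the log2 scale Gm4952 rose by 1.15 in WT (SE 0.25, adjusted p = 0.00248) and 1.66 in KO (0.23, adjusted p = 4.8e-06).

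On the HF diet, WT fed mice had 289, 220.0, 192 and 238 CPM of Gm4952 and WT fasted mice 305, 315, 483 and 467 CPM. KO HF fed mice had 255, 224, 239.7 and 153 CPM and KO HF fasted mice 358, 672 and 397 CPM. Again no ranges overlapped within a genotype. The values were 0.74 in WT (95% interval 0.28 to 1.21, adjusted p = 0.157), which did not pass, and 1.13 in KO (SE 0.24, adjusted p = 0.0238), which did. The KO value fell to 0.79 (adjusted p = 0.389) without KO HF fasted replicate 2, the mouse at 672 CPM, and the call was also lost without KO HF fasted replicate 3 or any 1 of KO HF fed replicates 2, 3 and 4. The difference of the fasting effect between diets was -0.47 (95% interval -0.95 to 0.02, adjusted p = 0.400), and that between genotypes, KO minus WT, was 0.44 (-0.04 to 0.93, adjusted p = 0.981). In the order of group means, the gap between neighbours lay between WT HF fed and WT HF fasted mice, with the 4 fed groups below it and the 4 fasted groups above.

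Keg1 and Gm4952 moved apart, and the number of Gm4952 counts per Keg1 count within a mouse, which needs no scaling between mice, separated the groups. It was 0.917 to 2.79 in the 15 fed mice, 3.38 to 8.13 in the 7 HF fasted mice and 12.9 to 30.04 in the 8 LF fasted mice. None of these 3 sets overlapped another. Transcript length was not taken into account, so the ratio compares mice and not the levels of the genes. Of the counts on Glyat, Keg1 and Gm4952 together, Keg1 held 16.7 to 32.5% in fed mice, 7.20 to 15.4% in HF fasted mice and 2.31 to 5.23% in LF fasted mice. The summed level of the 3 genes was 389.7 to 655 CPM in fed mice and 463 to 1013 CPM in fasted mice. The ratio is a description, given with no test, since it was formed after the levels had been seen.

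**Figure D2:**
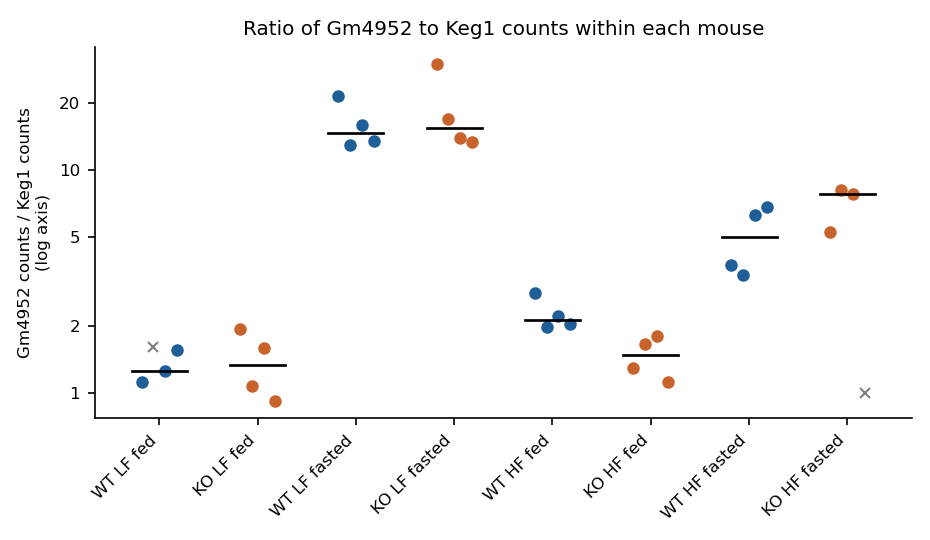
Gm4952 counts divided by Keg1 counts in each mouse (log axis) for the 8 groups, with blue points for WT, orange points for KO, grey crosses for the 2 mice left out and a black line at the median of the mice used. Fed mice sit at 0.917 to 2.79, HF fasted mice at 3.38 to 8.13 and LF fasted mice at 12.9 to 30.04.

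Glyat, the family member whose enzyme is best known for conjugating benzoate, did not pass any test. WT mice had 208, 177 and 219 CPM when LF fed, 183, 155, 179 and 197 CPM when LF fasted, 227, 227, 189 and 250.3 CPM when HF fed and 251, 197, 173 and 198 CPM when HF fasted. KO mice had 212, 196, 164 and 178 CPM when LF fed, 287, 227, 236 and 167 CPM when LF fasted, 190.4, 205, 196 and 212 CPM when HF fed and 198, 233 and 256 CPM when HF fasted. All 7 neighbouring pairs in the order of group means overlapped. The log2 fold change on fasting was 0.05 on average (95% interval -0.12 to 0.21, adjusted p = 0.765), and that of HF over LF was 0.11 (-0.05 to 0.27, adjusted p = 0.558). The fasting effect in KO minus that in WT was 0.38 (0.06 to 0.71, adjusted p = 0.972), and did not pass.

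On the synthetase side, Acsm1 fell on fasting in KO LF mice by 1.56-fold. ACSM1 activates butyrate and other short and medium-chain acids. WT LF fed mice had 119, 141 and 149.97 CPM and WT LF fasted mice 88.3, 79.0, 99.6 and 117 CPM. KO LF fed mice had 128, 169, 120.2 and 144 CPM and KO LF fasted mice 108, 67.7, 99.2 and 85.2 CPM. In neither genotype did fasted and fed mice overlap. The values were -0.64 in KO (SE 0.18, adjusted p = 0.0106), which passed, and -0.51 in WT (SE 0.19, adjusted p = 0.0990), which did not. The KO call was lost without KO LF fasted replicate 2 or KO LF fed replicate 2 (adjusted p of up to 0.0542). On the HF diet, Acsm1 had a log2 fold change of -0.12 in WT (95% interval -0.47 to 0.23) and 0.02 in KO (-0.36 to 0.40) and passed in neither. The average over the 4 conditions was -0.31 (SE 0.09, adjusted p = 0.0112). It did not pass with WT LF fed replicate 2 added (-0.27, adjusted p = 0.0572) or over all 32 mice (-0.37, adjusted p = 0.336). The effect on the HF minus that on the LF diet was 0.52 (95% interval 0.16 to 0.89, adjusted p = 0.1302), which did not pass. Its one gap between neighbours in the order of group means lay between WT LF fasted and WT LF fed mice.

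Acsm3 and Acsm5, which also encode mitochondrial medium-chain synthetases, did not pass on fasting. Acsm3 had 23.1 to 38.4 CPM in the 15 fed and 17.2 to 51.4 CPM in the 15 fasted mice, with an average log2 fold change of 0.28 (95% interval 0.04 to 0.51, adjusted p = 0.0896). Its largest value was in WT LF mice, at 25.7, 23.1 and 28.1 CPM fed and 39.9, 44.1, 37.1 and 34.9 CPM fasted, without overlap (log2 fold change 0.60, SE 0.24, adjusted p = 0.129). With WT LF fed replicate 2 added, at 9.15 CPM, it was 0.85 and passed (adjusted p = 0.0289). Eri2, whose exons overlap Acsm3, had a median of 6.64 CPM in fed and 7.22 CPM in fasted mice. Acsm5 had 29.8 to 58.7 CPM in fed and 27.4 to 68.5 CPM in fasted mice and an average log2 fold change of -0.06 (95% interval -0.25 to 0.13). By condition it had -0.22 in WT LF (-0.62 to 0.18), -0.17 in KO LF (-0.54 to 0.21), 0.42 in WT HF (0.06 to 0.79, adjusted p = 0.419) and -0.28 in KO HF mice (-0.67 to 0.12), none of which passed.

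Acsm2, a synthetase gene known for its expression in kidney, was near the floor of detection in liver. It had 0 to 21 counts per mouse, with 0 counts in 9 of 30 mice and 3 counts or fewer in 24. A level of 3 counts corresponded to 0.699 to 1.48 CPM at these totals. The 1 mouse above 8 counts was KO LF fed replicate 2, with 21 counts (8.85 CPM), against 0.320, 1.03 and 0 CPM in the other mice of that group. The kidney genes summed to 2.11 CPM in this mouse and hepatocyte genes to 68144 CPM. No fold change is given for Acsm2, since the groups lie at or near this floor.

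**Figure D3:**
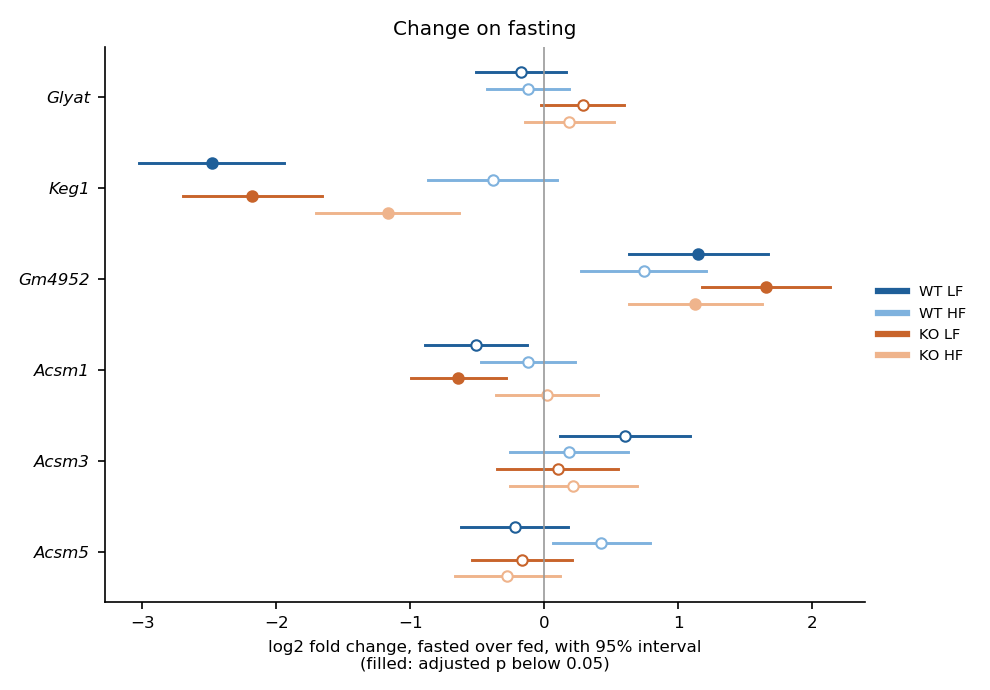
Log2 fold change of fasted over fed mice (horizontal axis) with its 95% interval for the 6 genes tested, in WT LF, WT HF, KO LF and KO HF mice (colours). Filled points passed at 0.05 after adjustment (edgeR). Keg1 lies at -2.48 and -2.18 on the LF diet and at -0.39 and -1.17 on the HF diet, Gm4952 lies between 0.74 and 1.66 in all 4, and Glyat lies between -0.17 and 0.29.

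By condition, the genes that passed on fasting were 2 of 6 in WT LF mice, where 7.54% of all genes passed, 3 of 6 in KO LF mice (13.8%), 0 of 6 in WT HF mice (0.424%) and 2 of 6 in KO HF mice (0.527%). In WT HF mice, 2 of the 6 genes, Gm4952 and Acsm5, had an unadjusted p below 0.05 by edgeR, as had 1063 of all 11566 genes. DESeq2 and limma voom called none of the 6 there either, where they called 161 and 71 of all 11566 genes. The 3 WT LF fed mice used were all on sequencing lane 8, while each other group was spread over lanes 7 and 8. With lane as a term in the model, all calls on fasting held. Fits within a lane had a term each for genotype, feeding state and diet in place of the group means. Lane 7 held no WT LF fed mouse, so that these terms are not the averages above. Within lanes 7 and 8 the feeding term was -1.32 and -1.59 for Keg1 (adjusted p = 0.0208 and 7.4e-04 by edgeR). For Gm4952 it was 0.99 and 1.28 (adjusted p = 0.00753 and 9.8e-08). For Acsm1 it was -0.32 and -0.27, which did not pass within a lane (adjusted p = 0.266 and 0.148).

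On average over genotype and feeding state, Keg1, Acsm1 and Acsm5 were higher on the HF than on the LF diet, with calls for single conditions in fasted mice. There Keg1 was higher by 3.12-fold in WT and 2.44-fold in KO, Acsm5 by 1.80-fold in WT, and Acsm1 by 1.66-fold in KO. In fed mice 0 of 6 genes passed by edgeR in WT (0.0778% of all genes passed) and 0 of 6 in KO (0.00865%). None of the 6 passed by DESeq2, which called 25 of all 11566 genes in WT and 11 in KO fed mice. Nor did any pass by limma voom, which called 11 and 0. Unadjusted p by edgeR was below 0.05 for 0 of the 6 in WT (604 of all 11566 genes) and for 2 in KO (840), Acsm5 and Gm4952. Averaged over genotype and feeding state, 3 of 6 genes passed, all higher on the HF diet, where 3.49% of all genes passed. Their log2 fold changes were 0.69 for Keg1 (SE 0.13, adjusted p = 0.00112), 0.47 for Acsm5 (0.09, adjusted p = 0.00229) and 0.37 for Acsm1 (0.09, adjusted p = 0.0133). For Keg1 the average joins unlike values, since in fed mice HF over LF was -0.45 in WT (95% interval -0.97 to 0.06, adjusted p = 0.989) and 0.28 in KO (-0.20 to 0.75, adjusted p = 0.877). For Acsm1 the values in fed mice were 0.15 in WT (95% interval -0.23 to 0.53) and 0.07 in KO (-0.28 to 0.42). Both were below its values in fasted mice, given below. The median of the averages was 0.28 over the 6 genes, against 0.01 over all genes.

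In WT fasted mice 2 of 6 genes passed, Keg1 and Acsm5 (1.12% of all genes), and in KO fasted mice 2 of 6, Keg1 and Acsm1 (1.68%). Acsm5 had 28.7, 28.5, 38.8 and 30.1 CPM in WT LF fasted and 68.5, 56.4, 49.8 and 52.0 CPM in WT HF fasted mice. These did not overlap, with a log2 fold change of 0.85 (SE 0.18, adjusted p = 0.00823). In KO fasted mice Acsm5 had 27.4, 43.3, 33.2 and 38.7 CPM on the LF and 49.0, 42.6 and 45.7 CPM on the HF diet, which overlapped, with a log2 fold change of 0.35 (95% interval -0.04 to 0.75, adjusted p = 0.471). In fed mice it had 36.8, 29.8 and 43.2 CPM in WT LF, 50.9, 36.6, 41.1 and 40.5 CPM in WT HF, 53.5, 40.5, 30.2 and 36.6 CPM in KO LF and 58.7, 58.3, 54.1 and 50.7 CPM in KO HF mice. The fed ranges of the diets overlapped in both genotypes, with values of 0.21 in WT and 0.46 in KO that did not pass. Whether the diet effect on Acsm5 differed between the genotypes among fasted mice alone was not tested.

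Acsm1 had 122, 158, 135 and 143 CPM in WT HF fasted and 173, 156 and 118 CPM in KO HF fasted mice. All 7 lay above the 8 LF fasted mice, whose highest was at 117 CPM. For HF over LF it was 0.73 on the log2 scale in KO (SE 0.19, adjusted p = 0.0322) and 0.54 in WT (0.18, adjusted p = 0.138). The KO call was lost without any 1 of 4 mice, KO HF fasted replicate 1 or 2 or KO LF fasted replicate 2 or 4 (adjusted p of up to 0.203). It was also lost with the replicate number as a block (0.72, adjusted p = 0.0568) and with age as a term (0.70, adjusted p = 0.0531). For Keg1, the HF over LF log2 fold change in fasted mice was 1.64 in WT (SE 0.25, adjusted p = 3.0e-04) and 1.29 in KO (0.27, adjusted p = 0.00758), and both calls held without any single mouse. For Gm4952 no diet difference was detected in fasted mice, at -0.03 in WT (95% interval -0.49 to 0.43) and -0.04 in KO (-0.54 to 0.46).

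In the fits within a lane, which had a diet term in place of the average over groups, none of the diet effects passed. They were 1.11 on lane 7 and 0.46 on lane 8 for Keg1, 0.53 and 0.45 for Acsm5 and 0.58 and 0.18 for Acsm1. The adjusted p by edgeR was at least 0.1001 and at most 0.566. Calls among all genes were also fewer, at 53 of 11303 on lane 7 and 85 of 12261 on lane 8, against 404 of 11566 over the 30 mice. With lane as a term over both lanes the 3 calls held. With all 32 mice none of them passed.

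Loss of MCAD went with no detected change in these genes. None of the 6 passed in any condition or in the average by edgeR, DESeq2 or limma voom. Of all genes, DESeq2 called 2 in LF fed, 1 in LF fasted, 2 in HF fed and 2 in HF fasted mice. It called 1 in the average, and limma voom called 1 in each of these comparisons. Of 24 edgeR tests in single conditions, 2 had an unadjusted p below 0.05. Over all genes this was so for 582 of 10366 in LF fed, 220 of 9639 in LF fasted, 393 of 10024 in HF fed and 384 of 10413 in HF fasted mice. The averages ran from -0.06 to 0.10 on the log2 scale. The share of all genes that passed was 0.0193% in LF fed, 0.0104% in LF fasted, 0.00998% in HF fed and 0.0096% in HF fasted mice, and 0.00865% in the average. On average over the 4 conditions, the 95% interval of KO over WT on the log2 scale was -0.09 to 0.23 for Glyat, -0.22 to 0.30 for Keg1, -0.18 to 0.30 for Gm4952, -0.19 to 0.18 for Acsm1, -0.29 to 0.17 for Acsm3 and -0.09 to 0.29 for Acsm5. In the fits within lanes 7 and 8, the genotype term was 0.46 and -0.26 for Keg1 and 0.29 and -0.21 for Gm4952, none of which passed. Lane 7 held no WT LF fed mouse, so that these terms are not like the averages over the 4 conditions.

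The largest single value was Keg1 in HF fed mice. The 4 KO mice, at 133 to 197 CPM, lay above the 4 WT mice, at 87.0 to 117 CPM, and the two-sided exact permutation test gave p = 0.0286, the smallest that 4 mice against 4 allow. The log2 fold change was 0.53 (95% interval 0.21 to 0.85, adjusted p = 0.999 by edgeR), and it was 0.37 without KO HF fed replicate 1, which had RNA of pancreas and heart genes. WT HF fed replicate 4, the WT mouse at 117 CPM of Keg1, had 226 CPM of heart genes, and without it the value was 0.59 (adjusted p = 0.930). Acsm5 in HF fed mice had 50.7 to 58.7 CPM in KO and 36.6 to 50.9 CPM in WT (log2 fold change 0.40, 95% interval 0.06 to 0.73). In HF fasted mice the order was the other way, with 42.6 to 49.0 CPM in 3 KO and 49.8 to 68.5 CPM in 4 WT mice (log2 fold change -0.31, adjusted p = 0.996). Exact permutation was run on the 7 genes only, in 4 conditions, so that no share of all genes can be set beside it. Of these 28 tests, 1 had p below 0.05, that of Keg1 in HF fed mice. In LF fed and HF fasted mice, with 3 mice against 4, the smallest possible p is 0.0571. No test there could fall below 0.05, and Acsm2 lay near the floor of detection.

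**Figure D4:**
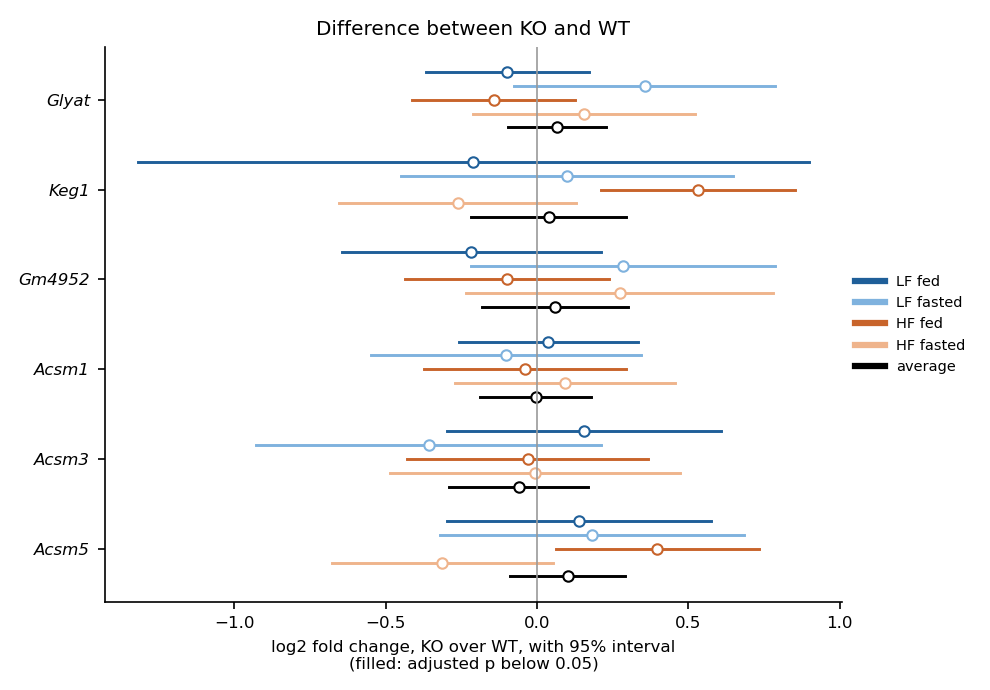
Log2 fold change of KO over WT (horizontal axis) with its 95% interval for the 6 genes tested, in each diet and feeding state and as the average over them (colours). All points are open, since none passed at 0.05 after adjustment (edgeR). The averages lie between -0.06 and 0.10, and the single values between -0.36 and 0.53.

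No difference of the genotype effect between the diets was detected for these genes (0 of 6 passed, 0% of all genes, with 397 genes and 0 of the 6 at an unadjusted p below 0.05 by edgeR). Nor was a difference of the fasting effect between the genotypes (0 of 6 passed, 0% of all genes, with 573 genes and 1 of the 6, Glyat, at an unadjusted p below 0.05). DESeq2 and limma voom also called 0 of the 6 in both, and 0 of all 11566 genes.

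Genes of the surrounding pathway are given from lists chosen by function, with earlier results of these data known. Of 15 tested genes of glycine supply and use, 2 rose and 3 fell on fasting in the average over conditions, with a median log2 fold change of -0.08. Of all 11566 genes, 1130 rose and 1057 fell in this average. Gcat, which breaks threonine products down to glycine, had -0.76 (SE 0.11), Gatm, which uses glycine to make guanidinoacetate for creatine, -0.74 (0.23), Alas1, which uses glycine to start haem synthesis, 1.75 (0.41), and Dmgdh, which breaks down dimethylglycine, 0.32 (0.09). Of 6 other genes for acyl transfer to amino acids or for the split of N-acyl amino acids, 3 rose and 2 fell, with a median of 0.02. Acnat1 (1.19) and Acnat2 (0.71), close relatives of the bile acid conjugating enzyme Baat, rose, while Pm20d1 (-0.57), which joins and splits N-acyl amino acids, and the aminoacylase Acy3 (-0.47) fell.

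In the fasting average, where 1130 of all 11566 genes rose and 1057 fell, 5 of 12 other acyl-CoA synthetases tested rose and 5 fell. Their median was 0.14. The long-chain synthetase Acsl1 (1.52) and the very-long-chain synthetase Slc27a2 (1.13) rose, and the cytosolic acetyl-CoA synthetase Acss2 (-2.21) and the acetoacetyl-CoA synthetase Aacs (-3.41) fell. Of 17 genes of other routes of medium-chain acyl-CoA, 13 rose and none fell, with a median of 0.73. Among them Cpt2 (1.06), Crat (1.84) and Acadl (0.69) act in the carnitine shuttle and in beta-oxidation, and Acadm itself had 1.07. Gm4952, with an average of 1.17, lay within the range of these rising genes, while Keg1, with -1.55, and Acsm1, with -0.31, lay below all 17, whose lowest value was -0.21. By condition, 10 of the 17 rose in WT LF mice, where 434 of all 11566 genes rose, 12 in KO LF mice (840), 2 in WT HF mice (31) and 1 in KO HF mice (34). The 2 in WT HF mice were Cpt2 and Acadm, and the 1 in KO HF mice was Acadm, the gene that was knocked out.

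**Figure D5:**
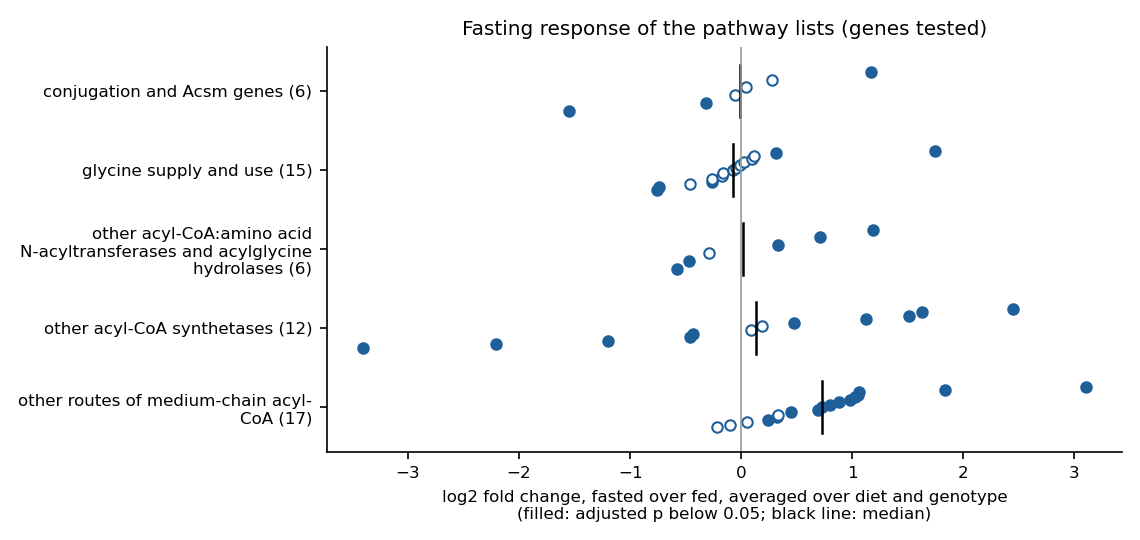
Each point is a tested gene, with its log2 fold change of fasted over fed mice averaged over diet and genotype on the horizontal axis, and rows are the 6 conjugation and Acsm genes and the 4 pathway lists with their number of tested genes. Filled points passed at 0.05 after adjustment (edgeR), and black lines are medians. The medians are -0.01 for the 6 genes, -0.08, 0.02 and 0.14 for the first 3 lists and 0.73 for the 17 genes of other medium-chain routes.

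The diet difference in the fasting effect, which passed for Keg1, also passed for 5 genes of these lists, of 15, 6, 12 and 17 tested. Over all 11566 genes, 285 passed (2.46%). The difference was -1.59 for Acnat2 (SE 0.34), -0.85 for Acsl1 (0.20), -1.65 for Crat (0.38), -0.77 for Cpt2 (0.20) and -0.59 for Acadl (0.16). These 5 rose on fasting on the LF diet in both genotypes, and their log2 fold change was lower on the HF diet. Keg1 fell on the LF diet, and its log2 fold change was higher on the HF diet, which is a smaller fall. On the average of the HF over the LF diet, 3.49% of all genes passed. Among them was 1 gene of glycine supply and use, Agxt2 (0.47), which uses glyoxylate to form glycine. None of the 12 synthetases rose, while Acsl4 fell (-0.41). Acy3 (0.40) and Acnat2 (0.59) rose among the transferases and hydrolases, and Hadh (0.36) among the medium-chain routes. Between KO and WT, Acadm was the one gene of these lists that passed in any condition.

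Variation between mice of one group was compared across genes as a description, after the group means had been removed from log2 CPM over the 30 mice. The genes most like each member were Slc17a1, Tfpt and Entpd2 for Glyat (r of 0.76, 0.72 and 0.72), Igf1, Lifr and Madd for Keg1 (0.74, 0.72 and 0.71) and Adtrp, Onecut2 and Atxn7l3 for Gm4952 (0.78, 0.76 and 0.74). They were D130020L05Rik, Ggnbp1 and Dcaf8 for Acsm1 (0.82, 0.80 and 0.80), Mb21d2, Ehhadh and Memo1 for Acsm3 (0.75, 0.74 and 0.74) and Chchd5, Nt5e and Itga5 for Acsm5 (0.79, 0.69 and 0.66). These are the highest of 11565 genes, and mice share sequencing lanes. Among the members the strongest was that of Gm4952 and Acsm1 (r = 0.46), and Keg1 and Gm4952, which moved apart on fasting, had r = 0.39 within groups.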

How the data were processed

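Per the labels and the study's methods, liver RNA was made into 3′ libraries, and the authors mapped single reads to GRCm38 with HISAT 0.1.5, handled them with SAMtools 1.2 and counted them per Ensembl gene with HTSeq 0.6.1p1 in union mode. The deposited values are raw counts for 20076 genes and 32 mice, without normalization. The Ensembl release is given as 82 in one place and 76 in another. Symbols, held by 19913 identifiers, and positions are from GENCODE vM21 on the same build, and promoters, found for all 7 genes, from RefSeq (GRCm38.p6).

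Counts were TMM-normalized, filtered by filterByExpr and tested by the robust quasi-likelihood F test of edgeR 4.0.16 in R 4.3.3, with adjustment by Benjamini-Hochberg over all genes. KO and WT were compared within the mice of a condition. Fasting, diet and differences of effects came from one model of 8 groups over 30 mice. Standard errors are the log2 fold change over the root of F, and intervals are 95%. Single genes were also tested by exact permutation of log2(CPM + 1). Scripts were tested on simulated counts. DESeq2 1.42.0, limma 3.58.1 voom, no filter, lane, age, the replicate number and other sets of mice were tried as alternatives. Total counts of 2031053 to 4292200 per mouse limit the precision of low genes, for which 3 counts were taken as the floor, and this covers counting error only. Same-numbered KO and WT mice did not deviate together (median correlation of deviations -0.00879 over 14 pairs, 1 above 0.1), so the number was not used as a pairing. Within groups, no pair differed by as little as counting noise (smallest chi-square per gene 3.97 over 42 pairs). The genes named are all 7 members, and at most 4 genes per pathway list and comparison with the smallest p among those that passed, with Acadm as the check of genotype, and the 3 genes most like each member. The members, lists and mice were chosen with earlier results of these data known.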

Additional observations from a re-analysis of the deposited data

Results flagged for a closer look

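Each gene's 4 mice of a group were searched for a mouse apart from the rest by Dixon's test on CPM. Of 42 sets, 4 were marked. A rate of about 1 in 20 by chance holds for normally spread values. The CPM were not checked for this and Acsm2 lay near the floor, so no excess is read from the 4. Keg1 in KO HF fed replicate 1 was at 197 CPM, with the other mice at 133 to 136 CPM. Acsm5 in WT LF fasted replicate 3 was at 38.8 CPM, with the others at 28.5 to 30.1 CPM. Acsm2 was at 8.85 CPM (21 counts) in KO LF fed replicate 2, with the others at no more than 1.03 CPM. Acsm2 in KO LF fasted replicate 1 was at 0.882 CPM, which is 2 counts and below the floor of 3, with the others at 0. The fasting effect on Keg1 differed between the diets, at 1.55 on the log2 scale for HF minus LF (SE 0.25, adjusted p = 3.6e-04 by the edgeR interaction test).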

How the results depend on the processing

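The 18 log2 fold changes that passed kept their direction in every alternative run, and all 18 still passed with DESeq2, limma voom, no filter on low counts and lane as a term. Over all 32 mice, the number of the 6 genes called was 1 for fasting in WT LF and 1 in KO LF mice, and 0 for fasting in KO HF, for the diet in WT fasted and KO fasted mice and on average, and for the diet difference in the fasting effect. The number called among all 11502 genes fell as well, to 414, 735 and 39 for the 3 fasting comparisons and to 5, 185, 81 and 22 for the diet comparisons and the difference. With 31 mice, leaving out the KO HF fasted mouse with heart RNA alone, 0 of the 6 were called for fasting in KO HF mice. For the diet in KO fasted mice it was also 0. Among all 11631 genes, 16 and 108 were called there, against 61 and 194 of 11566 with 30 mice. For fasting on average, 2 of the 6 were called both with 31 and with all 32 mice, with Acsm1 lost. Calls among all genes there were 2120 of 11631 and 1553 of 11502, against 2187 of 11566 with 30 mice. Within lanes 7 and 8 (16 and 14 mice) 0 and 0 of the 6 were called for diet (53 of 11303 and 85 of 12261 genes). For the diet in KO fasted mice, 1 of the 6 was called with the replicate number as a block and 1 with age as a term. Acsm1 was lost in both, and 153 and 157 of all 11566 genes were called. Same-numbered mice share only a number: 4 of 14 pairs correlated best with their own number, and the block changed no other call. Leaving out 1 mouse gave 0 to 2 of the 6 for fasting in KO HF and 1 to 2 for the diet in KO fasted mice. Of 540 such values of single genes, 522 still passed. Calls among all genes without a mouse are not given here. The cause of these changes was not tested. Fits within a lane or without a mouse also had fewer mice. Of 90 results that did not pass, 1 did in an alternative, Acsm3 on fasting in WT LF mice with 31 mice. Counts of 3 or fewer in 24 of 30 mice limit what can be said of Acsm2, and groups of 3 or 4 mice limit all comparisons of genotype.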
